A study of Mus musculus with 20 samples.

Results

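Open chromatin was examined at the loci of 9 regulators of muscle development: Pax3, Pax7, Six2, Six4, Six5, Eya1, Eya2, Eya3 and Eya4. The peaks of all 20 deposited lists were merged wherever they shared at least 1 bp, and every merged region within 20 kb of the span of a gene was taken as an element of that gene. Given these 9 genes, position alone chose the member elements, which came to 94 of the 101352 merged regions. The genes themselves were chosen with earlier results of these data known. Elements are numbered by position within each gene's window. A library calls an element if any of its peaks overlaps the element, by 1 bp or more. Eya4 had 20 elements, Pax7 had 17, Eya2 had 14, Eya3 had 11, Pax3 had 10, Six5 had 9, Six4 had 7, and Six2 and Eya1 had 3 each.

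Pax3 and Pax7 are paired-box transcription factors: Pax3 acts in the migrating muscle progenitors of the embryo, and Pax7 marks satellite cells, the stem cells of adult muscle. Six4 and its relatives are homeodomain factors that bind MEF3 sites in muscle genes such as Myog. Eya proteins do not bind DNA themselves; they are phosphatases that join these factors as coactivators. Together these families act upstream of the basic helix-loop-helix factors Myf5, Myod1 and Myog, which commit cells to muscle.

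The data are ATAC-seq libraries, in which a transposase cuts and tags open DNA, from C2C12 cells, an established mouse myoblast line that forms muscle cells in culture. Cells were wild type (WT) or carried a knockout (KO) of Setd2, the gene of a histone methyltransferase, and were sampled at D0, D1 and D5, the latter pair both with methionine restriction (MR) and in control medium (CTL). Methionine is the precursor of the methyl donor S-adenosylmethionine. The 10 groups were thus WT and KO cells at D0, D1 CTL, D1 MR, D5 CTL and D5 MR, with 2 libraries each: replicates 1 and 2 for WT, and 1 library from each of 2 lines, line 1 and line 2, for KO. No other allele or agent is named, and the labels state neither how the lines were made nor whether each is a clone. Nothing says that the libraries of a group came from separate cultures, and the same 2 lines recur in every condition, so p-values measure only the spread between these libraries.

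In 18 libraries the lists held 20847 to 69881 peaks and called 15 to 58 of the 94 elements. The lists of KO line 1 at D5 held 644 peaks in CTL and 1881 in MR; both were left out of the comparisons, which rest on 10 WT and 8 KO libraries. Background pileup, used here as the measure of depth, was 3.15 to 5.88 fragments per position in WT and in KO line 1 at D0 and D1, and 1.42 to 2.76 in KO line 2. Lists were also shorter at D5 in WT CTL, with 22465 and 20847 peaks, than in WT MR, with 39538 and 39263. A region at an end of Setd2 was called in all 18 libraries, which does not check the edit. Of 6 myoblast markers, Des, Cdh15 and Chrna1 had a call within 1 kb of a gene end in 18 libraries, Myod1 and Itga7 in 17 and Vcam1 in 0. Of 4 adipocyte markers, Pparg was called in 17, Plin1 in 1, and Adipoq and Fabp4 in 0. Of 4 fibroblast markers, Dcn was called in 9, Thy1 in 1, and Pdgfra and Lum in 0. Of 3 immune markers, Cd68 was called in 13, and Ptprc and Csf1r in 0. The neural markers Snap25, Sox10 and Elavl3 were called in 3, 1 and 0, and the endothelial markers Pecam1, Cdh5 and Kdr in 0.

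Sequences before the start sites are shown first, to set genes with a constant call there beside genes without one. RefSeq windows of GRCm38.p6, the 250 bases before an annotated start, were at hand for Pax7, Six2, Six4, Six5, Eya3 and Eya4. The first set below shows the windows lying outside the gene's own span, 5′ to 3′ on the gene's strand, with capitals for the bases inside a called element. These are Eya3 (chr4:132638796-132639024, plus strand), called in all 18 libraries; Six5 (chr7:19094294-19094543, plus strand), of which 32 bases lie in an element; and Six2 (chr17:85688255-85688504, minus strand), called in 0.
Eya3: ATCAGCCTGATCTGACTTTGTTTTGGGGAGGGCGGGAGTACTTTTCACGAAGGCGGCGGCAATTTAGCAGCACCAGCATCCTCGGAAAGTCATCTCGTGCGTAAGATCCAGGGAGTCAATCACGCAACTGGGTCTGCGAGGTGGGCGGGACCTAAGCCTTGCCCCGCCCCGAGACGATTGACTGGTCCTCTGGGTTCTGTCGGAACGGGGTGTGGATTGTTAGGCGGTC
Six5: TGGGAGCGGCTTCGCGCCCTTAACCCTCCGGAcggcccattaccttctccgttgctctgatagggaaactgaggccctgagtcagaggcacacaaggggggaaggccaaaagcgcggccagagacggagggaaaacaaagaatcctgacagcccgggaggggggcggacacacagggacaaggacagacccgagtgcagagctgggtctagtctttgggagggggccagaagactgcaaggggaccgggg
Six2: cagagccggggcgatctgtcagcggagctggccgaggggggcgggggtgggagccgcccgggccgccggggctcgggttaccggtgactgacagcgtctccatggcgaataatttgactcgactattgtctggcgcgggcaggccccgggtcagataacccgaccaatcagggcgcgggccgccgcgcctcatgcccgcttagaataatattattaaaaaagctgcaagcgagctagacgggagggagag

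Motifs were searched on both strands of these windows: the MEF3 core TCAGGTT, the E-box CANNTG bound by Myod1-type factors, the AP-1 site TGANTCA and the MEF2 core, CTA and TAG with any 4 bases between. No match overlapped a match of another motif. The MEF3 core occurred in 3.33% of the 21045 windows of protein-coding genes, the E-box in 62.8%, the AP-1 site in 6.17% and the MEF2 core in 3.09%. Six4 held a MEF3 core at position −97 from its downstream start, chr12:73113336-73113342, inside its called element. Eya3 held the E-box CAACTG at position −126, inside its element. Six5 held TGAGTCA at position −173, outside its element. Eya4 held an E-box at position −56 from one of its starts, also outside. None of the 4 motifs was in the windows of Pax7 and Six2. A match describes letters, not a bound site. The next set shows 30 bases around the Six4 match (chr12:73113324-73113353, minus strand) and the Eya4 match (chr10:23349929-23349958, minus strand), with the motif in capitals.
Six4 MEF3 core: ggcctgggggaAACCTGAtcggccagatcc
Eya4 E-box: ctgtttctccccCACTTGtgtaagctattt

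The windows without a call were not poor in G and C. The Six2 window held 64.8% GC and 26 CpG, and the Pax7 window 65.2% and 13. The window of Eya3 held 58.4% GC and 18 CpG. All windows had a median of 55.6% GC and 10 CpG; windows called in all 18 libraries had 62.4% and 18, and windows called in none had 49.2% and 3. The Eya4 window at its farther start was the richest among these genes, with 74.0% GC and 35 CpG, above 94.0% of windows by GC.

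Elements within 1 kb of a gene end were found for 5 of the 9 genes, Six4, Six5, Eya1, Eya3 and Eya4, while Pax3, Pax7, Six2 and Eya2 had none. In Six4, Eya3 and Eya1 the element was called in all 18 libraries. Over 21631 protein-coding genes, 26.4% had such a call in all 18 libraries and 42.2% in none. Among all 94 elements, 11 were called in all 18 libraries (11.7%, against 11% of all regions) and 21 in exactly 1 (22.3%, against 20.4%). The 11 constant elements had a median length of 399 bp, and the 21 single-library elements 67 bp. The members were thus spread over constant and rare elements much as all regions were.

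Strength is given as a percentile, the share of a library's own list with a −log10 q-value at or below that of the peak, so that 100 is the strongest peak. Percentiles and fold enrichments are the authors' values ranked within a list, and they are descriptions that carry no test between lists.

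Six4, the homeobox gene with a constant promoter, had element 5 at its start sites (chr12:73113304-73113574). Its percentile ran from 74.5 to 93.4 with a median of 84.8 in the 10 WT libraries, and from 76.7 to 93.9 with a median of 90.1 in the 8 KO libraries. Fold enrichment over background was 4.56 to 12.52. The genotypes overlapped over nearly the whole range. The intragenic Six4 element 2 (chr12:73110374-73111080), chosen after its values were seen, was also called in all 18, at percentiles of 26.5 to 81.8.

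Eya3 had element 5 over its start site (chr4:132638772-132639149). Its percentile was 39.3 to 95.8 with a median of 88.5 in WT, and 61.2 to 96.2 with a median of 85.6 in KO. It was the only one of the 94 elements called in either short list of KO line 1 at D5, the MR list, at percentile 23.8 and a fold of 3.67. Eya3 element 6 (chr4:132652897-132653150), inside the gene and named after its values were seen, was likewise called in all 18, at percentiles of 43.2 to 96.9.

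Eya1 had element 3 (chr1:14309639-14310369) within 666 bp of its higher end. This element was constant but weaker: percentiles ran from 20.5 to 69.3 with a median of 51.9 in WT, and from 6.4 to 65.9 with a median of 39.5 in KO. The ranges again overlapped.

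Six5 lies 219 bp from the long element 7 (chr7:19092607-19094325, 1719 bp), which also covers an end of the neighbouring gene Dmpk and so cannot be assigned to Six5 alone. It was called in 16 libraries and missed in both WT D5 CTL libraries. Its percentile was 52.7 to 88.9 in the 8 WT libraries with a call and 4.2 to 87.6 in KO. Element 8 (chr7:19094857-19095551), at the same gene end, was called in 7 libraries at percentiles of 0.6 to 41.0. In the Six5 window, element 1 (chr7:19075935-19076259), at an end of Dmwd, and element 3 (chr7:19083798-19084859) were each called in all 18 libraries.

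Eya4 had element 20 at its starts (chr10:23350037-23350673). It was called in 10 of 10 WT libraries, at percentiles of 7.7 to 52.4 with a median of 36.3. In KO it was called in 4 of 8: in line 1 at D0, D1 CTL and D1 MR, and in line 2 at D1 CTL only, at percentile 8.5. The difference in calls did not pass the test described below (difference of −0.6 in the share of libraries with a call, exact permutation test, p = 0.0278, adjusted p = 0.0681). The plot of percentiles shows these promoters beside the strongest Pax7 element.

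**Figure D1:**
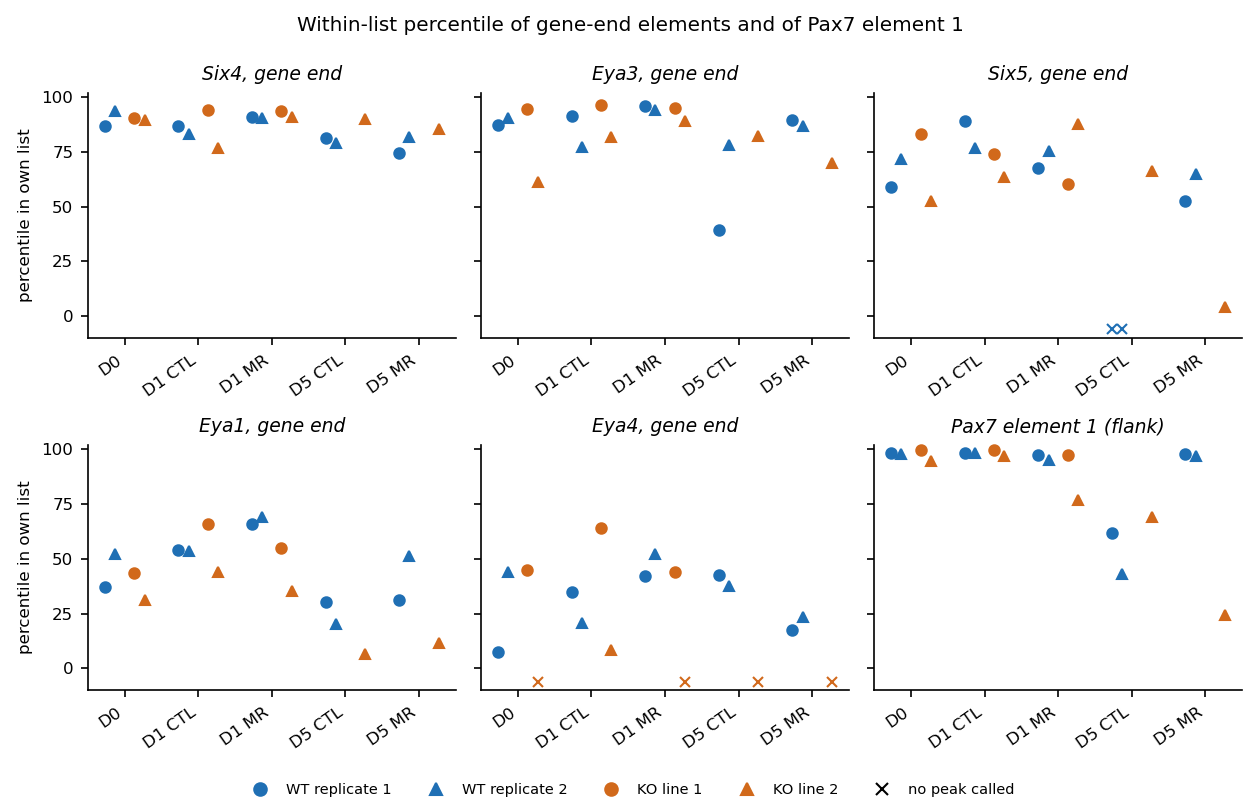
Percentile within the library's own list (vertical axis, 100 is the strongest peak) of 6 elements by day and medium (horizontal axis), in WT (blue) and KO (orange) libraries, with a circle for replicate or line 1, a triangle for 2 and a cross for no call. Six4 element 5 lies at 74.5 or above in WT and KO, Eya3 element 5 has 1 low WT value of 39.3 at D5 CTL, Eya1 element 3 lies at 69.3 or below, and Eya4 element 20 is missing from 4 KO libraries.

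Genotype was compared by the number of called elements per locus and by single elements. For each, KO and WT labels were exchanged within D0, D1 CTL, D1 MR, D5 CTL and D5 MR in all 1944 ways (exact permutation test, two-sided, smallest p 0.000514), and p-values were adjusted by the Benjamini-Hochberg method over every locus or region of the genome whose values allow a p of 0.05. A difference is the mean over the 5 conditions of KO minus WT. Of the 9 loci, Pax3 had more called elements in KO, and Pax7, Six2 and Eya2 had fewer. Among 13691 testable loci, 10.5% passed, 1.9% higher and 8.57% lower in KO, and 30.3% had an unadjusted p under 0.05, against 5 of the 9 loci here. The median difference over the 9 loci was −0.5, against −0.1 over all testable loci. The 4 calls are close to the threshold. With a cover of 50% asked of each call, 0 passed (exact permutation test, adjusted p of 0.0717 to 0.192), and with peaks of −log10 q at least 5 only Six2 did (0.0481). Leaving out WT replicate 1, WT replicate 2 or KO line 2 left 0 of the 4 past the threshold (adjusted p of 0.138 to 0.358), and leaving out KO line 1 left Pax7 and Six2 (0.0499 each), with fewer arrangements each time and the same direction at all 4 loci.

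Pax7 had 2 to 14 called elements per WT library with a median of 6.5, and 1 to 7 per KO library with a median of 3.5. Means were 7.5 ± 3.57 (SD, n = 10) in WT and 3.25 ± 1.98 (SD, n = 8) in KO. The locus fell by 4.7 elements in KO (exact permutation test, adjusted p = 0.0308), and KO was lower in 5 of 5 conditions. At D0 and D1 the WT libraries called 6 to 14, KO line 1 called 4 to 7 and the shallower KO line 2 called 2 to 4. The ranges of WT and KO overlapped across conditions, and the part of line 2's depth in the difference was not tested. With counts scaled to 10000 peaks of each list, the Pax7 difference was −0.98 (exact permutation test, adjusted p = 0.0156), and with the 20000 strongest peaks of each list it was −2.0 (adjusted p = 0.0335).

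Of the 17 Pax7 elements, 10 were called in at least 1 WT library and in no KO library, and 0 in KO alone. Over all regions, 21.8% were called in WT alone and 20.1% in KO alone. Of all 94 member elements, 26 (27.7%) were called in WT alone and 19 (20.2%) in KO alone, near those shares. Element 15 (chr4:139841003-139841356), 8035 bp upstream of the nearest RefSeq start site and singled out after its values were seen, had a call in 8 of 10 WT libraries and 0 of 8 KO libraries, and lay just outside the threshold (exact permutation test, p = 0.00874, adjusted p = 0.0504). The intragenic element 9 (chr4:139797418-139797642), also singled out afterwards, was called in 10 of 10 WT libraries at a median percentile of 77.7. In KO it was called in 6 of 8, at 64.0 and 29.9 at D0, 80.3 and 25.5 at D1 CTL, and 78.5 and 38.8 at D1 MR for lines 1 and 2. Both KO libraries of D5 lacked it. Element 14 (chr4:139836359-139836518), likewise singled out, was called in 9 WT and 3 KO libraries (exact permutation test, adjusted p = 0.0881).

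The strongest element of the Pax7 window behaved otherwise. Element 1 (chr4:139719053-139719451) lies 17608 bp beyond the gene's lower end and 113517 bp from its start, and it was called in all 18 libraries. Its percentile was 43.3 to 98.3 with a median of 97.6 in WT, and 24.4 to 99.7 with a median of 95.9 in KO, with folds up to 19.06. It ranked lower at D5 CTL, at 61.7 and 43.3 in WT and 68.9 in KO line 2, and in KO line 2 at D5 MR, at 24.4, but not in WT at D5 MR, at 97.8 and 96.8.

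Pax3, the progenitor factor, was the only one of the 9 loci to pass higher in KO on unscaled counts. WT libraries called 2 to 3 elements with a median of 2.0, and KO libraries 2 to 9 with a median of 4.5. Means were 2.3 ± 0.483 (SD, n = 10) and 5.0 ± 2.27 (SD, n = 8). The locus rose by 2.3 elements (exact permutation test, p = 0.00463, adjusted p = 0.0454); KO was higher in 4 of 5 conditions and lower in 0. KO line 1 called 5 to 9 at D0 and D1 and line 2 called 3 to 6, against 2 to 3 in WT. Scaled to 10000 peaks the difference was 0.59 (exact permutation test, adjusted p = 0.0108). With the 20000 strongest peaks it was 1.0 (exact permutation test, adjusted p = 0.0771), and with all 20 libraries 1.7 (adjusted p = 0.189), so the call was lost there.

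Of the 10 Pax3 elements, 5 were called in KO alone and 0 in WT alone, against 20.1% and 21.8% of all regions. Element 1 (chr1:78088770-78089184, 415 bp, 12083 bp beyond the gene's lower end) had a call in 0 of 10 WT libraries and 6 of 8 KO libraries. It was called in KO lines 1 and 2 at D0, at percentiles 88.0 and 63.7, and at D1 CTL, at 72.9 and 56.1. Further calls were in line 1 at D1 MR, at 39.0, and in line 2 at D5 CTL, at 42.7. Folds were 4.47 to 8.47. The share of libraries with a call was 0.7 higher in KO (exact permutation test, p = 0.00463, adjusted p = 0.0403). When a peak had to cover 50% of the region, the difference was 0.1 (exact permutation test, p = 1), so the pass rests on peaks that cover less than that. With all 20 libraries the adjusted p was 0.0507. The constant Pax3 element 6 (chr1:78181980-78182192), inside the gene, had a median percentile of 75.4 in WT and 77.6 in KO, with ranges of 10.6 to 89.1 and 40.7 to 90.6.

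**Figure D2:**
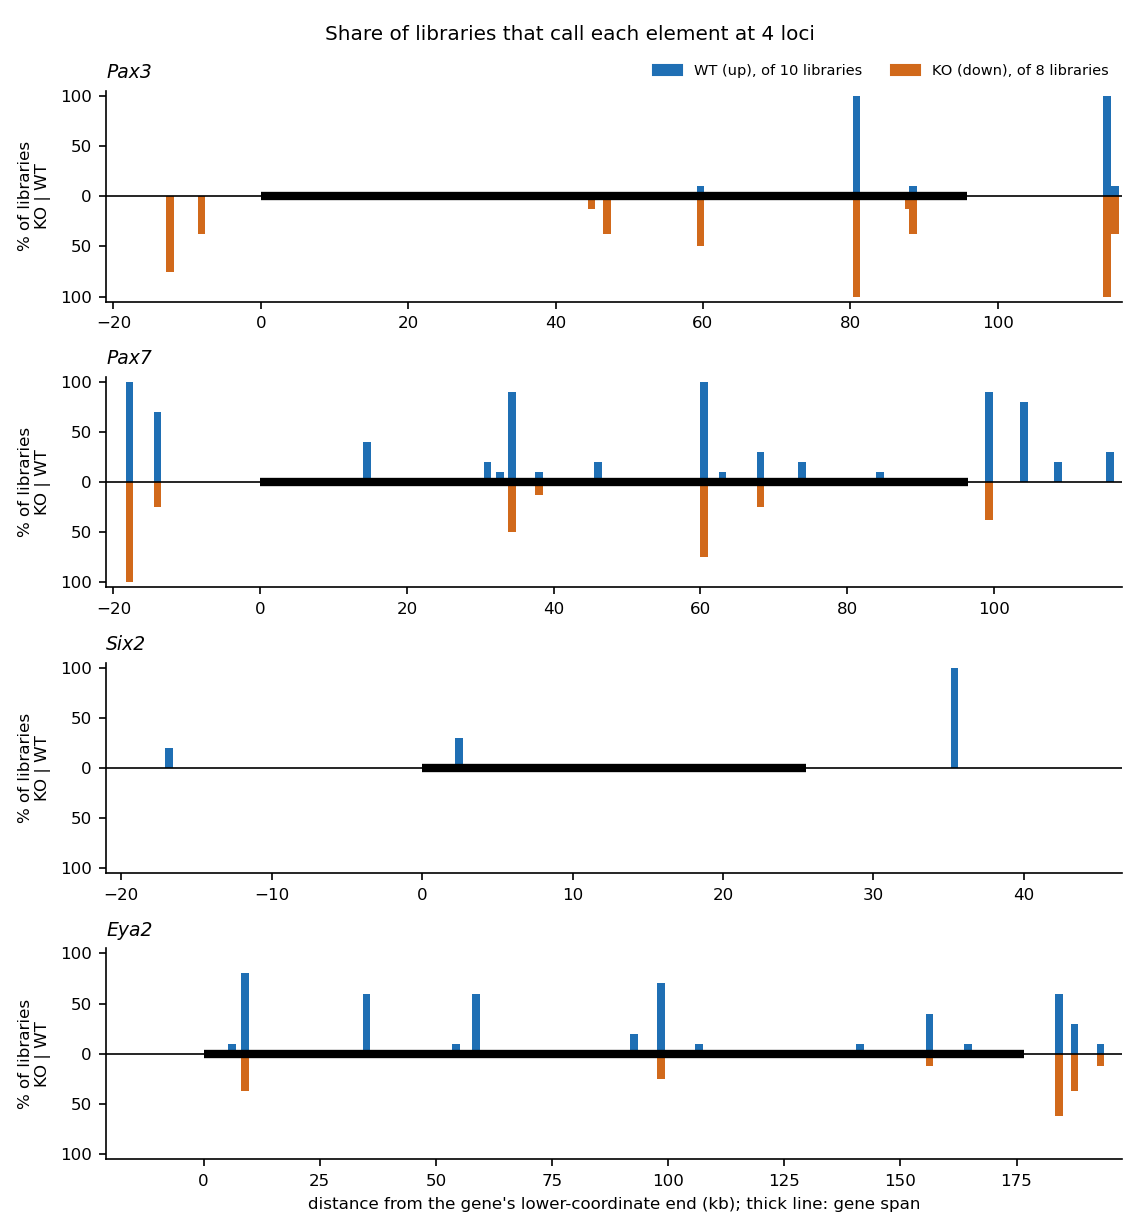
Share of libraries with a call (vertical axis, percent: WT upward, of 10; KO downward, of 8) for each element of Pax3, Pax7, Six2 and Eya2 along the gene and its 20 kb flanks, with distance from the gene's lower end in kb (horizontal axis) and the gene span as a thick line. Pax7, Six2 and Eya2 have elements drawn only upward, and Pax3 has elements drawn only downward.

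Six2 is the homeobox gene best known from kidney progenitors. Its locus held 3 elements, all called in WT alone, against 21.8% of all regions. WT libraries called 1 to 3 with a median of 1.0, and every one of the 8 KO libraries called 0. Means were 1.5 ± 0.85 (SD, n = 10) and 0 (n = 8). The locus fell by 1.5 elements in KO (exact permutation test, p = 0.000514, the smallest the design allows; adjusted p = 0.0272), lower in 5 of 5 conditions. The call held with the 20000 strongest peaks (−0.9, exact permutation test, adjusted p = 0.0286) and per 10000 peaks (−0.34, adjusted p = 0.0108).

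This difference rested mainly on Six2 element 3 (chr17:85698027-85698230, 204 bp), 9773 bp upstream of the gene's start. It had a call in 10 of 10 WT libraries and 0 of 8 KO libraries. Its WT percentiles were 70.5 and 68.6 at D0, 77.2 and 86.3 at D1 CTL, 76.5 and 80.7 at D1 MR, 16.4 and 60.6 at D5 CTL, and 52.0 and 43.7 at D5 MR. Folds were 3.08 to 8.07. Most WT calls were thus well inside their lists, with replicate 1 of D5 CTL near the bottom. The genotypes did not overlap (difference −1.0, exact permutation test, p = 0.000514, adjusted p = 0.0327). Elements 1 and 2 were weak, with calls in 2 and 3 libraries at percentiles up to 32.1. In the exact permutation test the adjusted p of element 3 was 0.0532 with peaks of a −log10 q-value of at least 5, and 0.0565 with 50% cover; it was called in 9 WT and 0 KO libraries among the 20000 strongest peaks (adjusted p = 0.0302).

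Six4 and Six5 did not pass. Six4 had 2 to 4 called elements in WT and 2 to 5 in KO, each with a median of 3.0 (difference 0.3, exact permutation test, adjusted p = 0.712). Six5 had 4 to 9 in WT with a median of 5.0 and 4 to 8 in KO with a median of 5.5 (−0.5, exact permutation test, adjusted p = 0.621).

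Among the Eya coactivators, Eya2 passed. Its WT libraries called 0 to 11 elements with a median of 5.5 and its KO libraries 0 to 3 with a median of 2.0. Means were 4.8 ± 3.71 (SD, n = 10) and 1.88 ± 1.25 (SD, n = 8). The locus fell by 3.3 elements in KO (exact permutation test, p = 0.00154, adjusted p = 0.0308), lower in 5 of 5 conditions. At D0 and D1 the WT libraries called 4 to 11, and both KO lines called 2 to 3, so there the genotypes did not overlap. The part of line 2's lower pileup was not tested. Scaled to 10000 peaks the difference was −0.6 (exact permutation test, adjusted p = 0.0178), and with the 20000 strongest peaks −0.8 (adjusted p = 0.0373).

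Of the 14 Eya2 elements, 8 were called in WT alone and 0 in KO alone, against 21.8% and 20.1% of all regions. Element 5 (chr2:165653493-165653844), inside the gene and singled out after its values were seen, was called in all 6 WT libraries of D0 and D1 and in no other library. It lay just outside the threshold (exact permutation test, p = 0.00926, adjusted p = 0.0504), at percentiles of 17.2 to 52.7. Element 3, also inside the gene and also singled out, had an adjusted p of 0.054 (exact permutation test), with calls in 6 WT and 0 KO libraries. Eya2 elements 2 and 12 tied as those called in most libraries. The higher ranked, element 2 (chr2:165603855-165604048), was called in 8 WT libraries at a median percentile of 78.3. In KO it was called in 3 libraries, all of line 2, at 1.3 to 72.4. Element 12 was called in 6 WT and 5 KO libraries, at median percentiles of 29.4 and 26.7.

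Eya3 had 3 to 5 called elements in WT with a median of 4.0, and 3 to 10 in KO with a median of 5.0. Its difference of 1.7 did not pass (exact permutation test, p = 0.0417, adjusted p = 0.145), but scaled to 10000 peaks it did (0.5, adjusted p = 0.0108). Over the genome, too, more loci passed higher in KO on scaled counts than on unscaled ones. Line 1 called 8 to 10 at D0 and D1, line 2 called 5 in each library and WT 3 to 5. Of the 11 Eya3 elements, 6 were called in KO alone and 0 in WT alone, against 20.1% and 21.8% of all regions. All 6 were called in line 1 only and never in line 2. Elements 4, 7 and 10 had a call in 1 library each, at percentiles 16.4, 1.7 and 7.4. Elements 1, 3 and 11, singled out afterwards, were called in all 3 line 1 libraries of D0 and D1 and nowhere else, at percentiles of 1.5 to 39.6.

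Eya4 had 1 to 11 called elements in WT with a median of 9.0, and 2 to 16 in KO with a median of 4.0 (difference −2.3, exact permutation test, adjusted p = 0.428). The KO lines stood apart: at D0 and D1, line 1 called 10 to 16 and line 2 called 2 to 4, with WT at 7 to 11 between them. Without line 2 the difference was 3, the opposite direction. Of the Eya4 elements called in 14 libraries, the higher ranked, element 15 (chr10:23233551-23233807), was called in 6 WT and 8 KO libraries, at median percentiles of 66.9 and 64.6. Eya1 called 1 to 3 in each genotype with a median of 2.0 (difference 0, exact permutation test, p = 1).

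**Figure D3:**
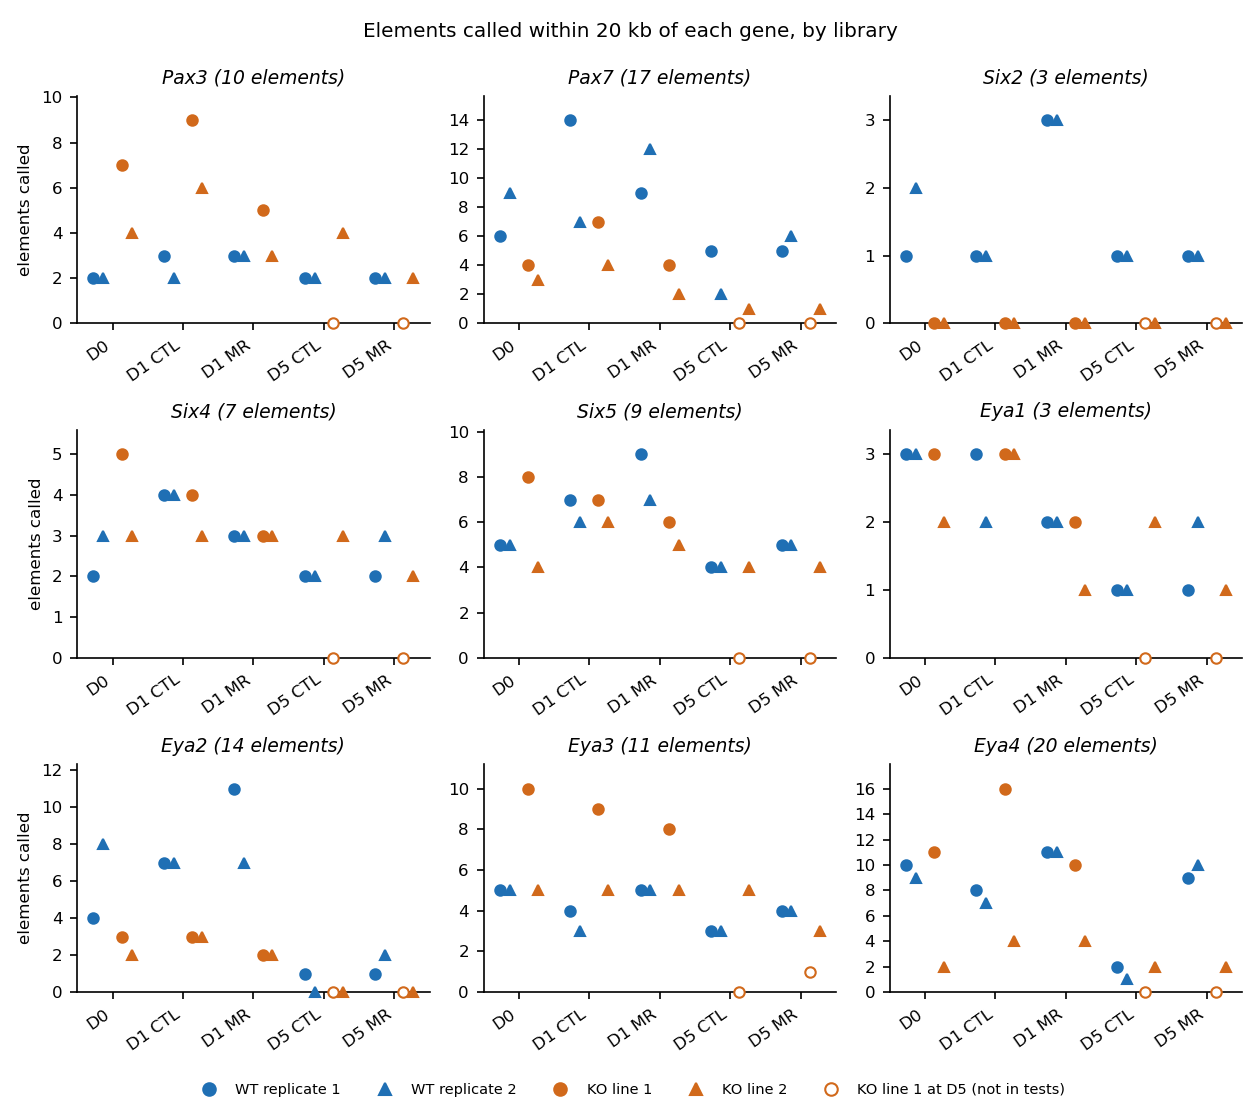
Number of called elements (vertical axis) at each of the 9 loci in each library by day and medium (horizontal axis), WT in blue and KO in orange, with a circle for replicate or line 1, a triangle for 2 and open circles for KO line 1 at D5. Pax7, Six2 and Eya2 lie lower in KO, Pax3 lies higher, and the D5 CTL groups of WT are low at Eya2 and Eya4.

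Over single elements, 2 of the 20 testable ones passed, Pax3 element 1 higher and Six2 element 3 lower in KO, against 11.5% of 19646 testable regions (4.63% higher and 6.86% lower). At an unadjusted p under 0.05 there were 13 of 20, against 47.3%. With the 20000 strongest peaks of each list, 5 member elements passed, all lower in KO: Pax7 elements 9 and 14, Six2 element 3, Eya2 element 2 and Eya4 element 14. The share of all regions passing under this setting is not given here, so the 5 are not read as a trait of the members.

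Within D0 and D1, 3 elements were called in all 6 WT and no KO library, Pax7 element 15, Six2 element 3 and Eya2 element 5 (background 0.976% of regions), and 0 in the reverse pattern (background 0.353%). At D0 alone, 2 elements, Pax3 elements 1 and 5, were called in both KO and neither WT library (background 1.77%), and 6 the other way (3.77%). At D1 CTL the counts were 6 (4.25%) and 7 (5.06%), and at D1 MR 0 (1.26%) and 12 (13.9%). The 6 KO elements of D1 CTL were 3 of Pax3, 1 of Eya3 and 2 of Eya4.

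The lines also differed from each other. Of the 94 elements, 8 were called in all 3 line 1 libraries and no line 2 library of D0 and D1 (background 6.75%), and 1, Eya2 element 2, in the reverse pattern (0.45%). Of the 8, 4 were absent from WT too (2.56%): Pax3 element 2 and Eya3 elements 1, 3 and 11. Line 2 had the lower background pileup, and its part in these counts was not tested.

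Ranks also moved by chromosome between the lines. Among the 19629 regions that every one of the 12 D0 and D1 libraries called, the median rank of chromosome 17, which carries Six2, was −8.3 to −6.1 percentile points from WT in line 2, and −0.1 to 0.6 in line 1. For chromosome 10, which carries Eya4, it was −6.9 to −3.4 in both lines. For chromosome 12, which carries Six4, it was −6.3 to −5.2 in line 1 and −0.4 to 2.0 in line 2. Chromosomes 1, 2, 4 and 7 lay between −0.9 and 3.7. The part of these shifts in the calls was not tested. Some single elements moved further than these medians, up or down. Pax7 element 9, singled out afterwards, ranked below the WT mean of its condition in 6 of 6 KO libraries of D0 and D1, by 5.3 to 51.1 points. Pax7 element 1, on the same chromosome, moved by −27.2 to 5.6. Pax3 element 6 moved by −44.8 to 30.3 and Six5 element 7 by −32.6 to 48.8.

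The change with time was compared as D5 minus D1 within genotype and medium (324 arrangements, smallest p 0.00309), and covers differentiation from its first day on. Pax7, Six5 and Eya2 had fewer called elements at D5. The background is wide: 64.6% of 12531 testable loci passed lower and 0.00798% higher, against 3 of 8 testable members lower. At an unadjusted p under 0.05 there were 5 of the 8, against 73.3% of loci. Lists at D5 were shorter. Eya2 had 5.25 ± 3.24 called elements at D1 (SD, n = 8) and 0.667 ± 0.816 at D5 (SD, n = 6), a difference of −4.75 (exact permutation test, adjusted p = 0.0185). Pax7 had 7.38 ± 4.14 and 3.33 ± 2.25 (−4.62, exact permutation test, adjusted p = 0.0228). Six5 had 6.62 ± 1.19 and 4.33 ± 0.516 (−2.38, exact permutation test, adjusted p = 0.0185).

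Of these, only Eya2 also passed as lower at D5 when counts were scaled to 10000 peaks of each list (−0.8, exact permutation test, adjusted p = 0.0236). There Pax7 had −0.38 (exact permutation test, adjusted p = 0.216). Six5 and Six4 turned to the other side and passed as higher at D5, at 0.31 and 0.21 (exact permutation test, adjusted p = 0.0452 each). Over the genome, too, more loci passed higher than lower at D5 on scaled counts. Unscaled, Six4 had −1.0 (exact permutation test, adjusted p = 0.0529). With the 20000 strongest peaks 0 of the members passed by this exact permutation test, and Eya2 had −0.75 (adjusted p = 0.233). The directions for Six5 and Six4 therefore depend on the scaling. With KO line as a block, since libraries of a line come from the same cells, 5 loci passed: Eya2 (−4.75), Pax7 (−4.0), Six5 (−2.12), Eya4 (−2.88) and Pax3 (−1.12), with adjusted p of 0.0315 to 0.0499. Without WT replicate 1 or 2, 0 of Eya2, Pax7 and Six5 passed (exact permutation test, adjusted p of 0.0705 to 0.106). The block drops the line 1 libraries of D1, which have no D5 partner in use. For this contrast it is therefore the same test as leaving out KO line 1. With 1 replicate left out at a time, 0 to 7135 loci passed over the genome.

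Among single elements 0 of 15 testable members passed D5 minus D1, and 0 of 14311 regions (0%). At an unadjusted p under 0.05 there were 4 members, against 50.1% of regions. With KO line as a block, Six5 element 9 and Eya2 element 12 passed (each −0.75, exact permutation test, adjusted p = 0.0413). That block is the same test as leaving out KO line 1, and 3512 regions passed it over the genome. In WT CTL, 16 elements were called in both D1 and neither D5 library (background 19%), 5 of Eya4, 4 of Eya2, 3 of Six5, 2 of Pax7 and 1 each of Six4 and Eya1; 1 element of Six5 had the reverse pattern (0.237%). In WT MR the counts were 13 (15.7%) and 1, an Eya4 element (1.21%).

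D1 CTL and D0 could not be tested, since 36 arrangements give no p below 0.0556. In WT, 3 elements were called in both D1 CTL and neither D0 library, Pax7 element 16, Six4 element 1 and Six5 element 8 (background 4.69%), and 3 in the reverse, Eya3 element 8 and Eya4 elements 12 and 15 (1.66%). In KO the counts were 0 (1.44%) and 0 (0.266%).

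No member passed the test for methionine restriction. MR minus CTL was compared within genotype and day (432 arrangements, smallest p 0.00463). By this exact permutation test 0 of 6 testable loci passed, and 0 of 9009 over the genome (0%), where 1.99% had an unadjusted p under 0.05. Among elements, 0 of 2 passed and 0 of 2611 regions (0%), against 10.2% at an unadjusted p under 0.05. The member below that level was Eya4 element 12 (0.75, exact permutation test, p = 0.0278, adjusted p = 0.301). The difference of the MR effect between genotypes passed in 0 of 7 testable members and 0 of 11525 loci (exact permutation test), with 20.9% of loci at an unadjusted p under 0.05. Its largest member value was that of Eya4, −7.25 (exact permutation test, p = 0.0833, adjusted p = 0.27).

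At Eya4 both days entered that value. At D1 the WT libraries called 8 and 7 Eya4 elements in CTL and 11 and 11 in MR, while KO lines 1 and 2 called 16 and 4 in CTL and 10 and 4 in MR. At D5 the WT libraries called 2 and 1 in CTL and 9 and 10 in MR, while KO line 2 called 2 in each medium. Among the 20000 strongest peaks the WT counts at D5 were 2 and 1 against 5 and 3, and per 10000 peaks 0.89 and 0.48 against 2.28 and 2.55. The MR lists of WT at D5 were longer, and 11.9% of all regions were called in both WT D5 MR and neither D5 CTL library. Of the 94 elements 9 had that pattern, 7 of them of Eya4, with Six5 element 7 and Eya3 element 8; 0 had the reverse (0.211%). The 7 Eya4 elements were singled out by this pattern, so their count carries no test.

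At D1 the WT pattern of both MR and neither CTL library held for 9 elements (background 7.73%), 4 of Eya4, 2 of Six2 and 1 each of Six5, Eya2 and Eya3, and the reverse for 2, Pax7 element 16 and Six4 element 1 (1.33%). In KO at D1, 0 elements were called in both MR and neither CTL library (0.253%), and 5 in the reverse (2.74%): Pax3 elements 5, 8 and 10, Pax7 element 14 and Eya1 element 1.

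**Figure D4:**
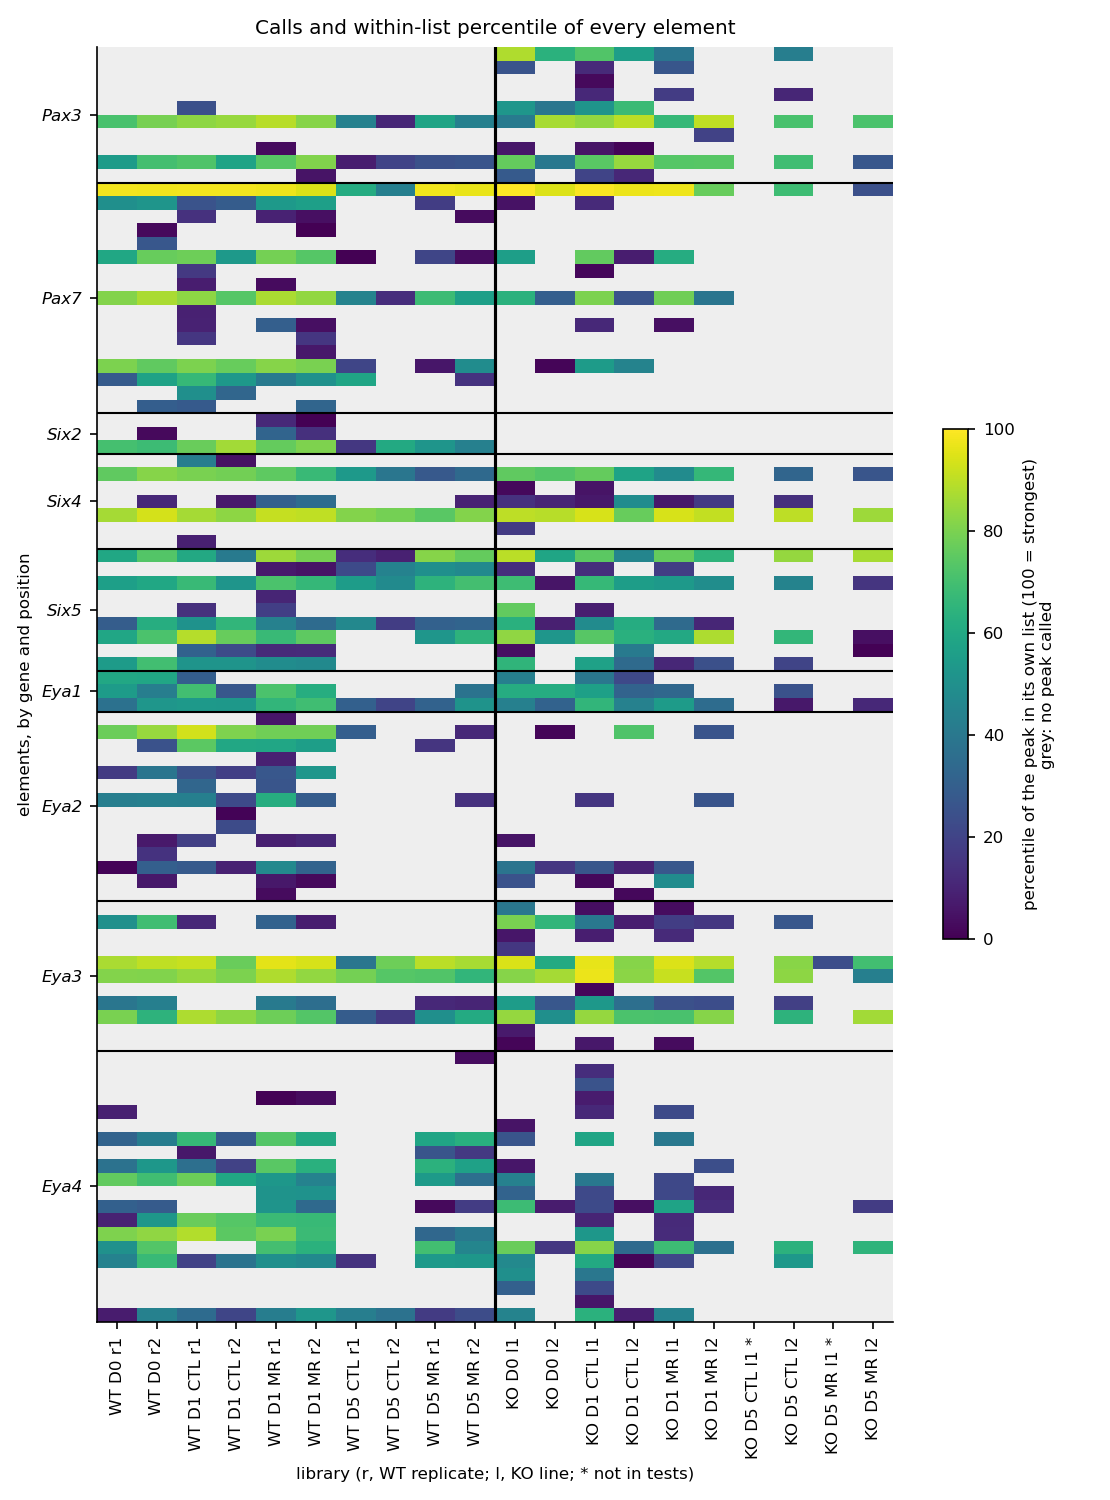
Calls of all 94 elements (rows, grouped by gene and ordered by position) in the 20 libraries (columns, ordered by genotype, day and medium), coloured by percentile within the library's own list (100 is the strongest peak) and grey where no peak was called. Both KO line 1 columns at D5 are nearly empty, with 0 and 1 calls, and the Six2 rows are empty in every KO column.

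The other genes of the network were taken from a list of 24, covering cofactors such as Dach1 and Ski and the myogenic targets. A gene end was called in all 18 libraries for 7 of them, including Ski and Meis1, and in none for 7. In KO, 0 of 20 testable loci were higher and 3 lower: Myog (−6.9, exact permutation test, adjusted p = 0.0272), the terminal differentiation factor, Myod1 (−3.6, adjusted p = 0.0308), the determination factor, and Pitx3 (−2.4, adjusted p = 0.0272), a homeobox factor of lens and muscle. Over all testable loci 8.57% were lower. The median difference over all 24 genes of the list was −0.3, against −0.1 over all testable loci. The 24 include Dach1, Dach2, Meox2 and Tcf21, which had 0 regions and a difference of 0. With MR, 0 of 14 passed. From D1 to D5, 13 of 19 were lower and 0 higher, against 64.6% lower over all testable loci. The median was −1.38 over all 24 genes, −0.88 over all testable loci and −1.75 over the 9 members. The list and member medians for time include genes that could not be tested, so they cover an unlike set to the background. Myf5 and Myf6 are both among the 13 and had the same values, with 5 regions and a difference of −1.38 each.

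Likeness was measured as Pearson's r of called elements per 10000 peaks over the 18 libraries, against all genes with at least 5 regions. All points share list length and depth, so r is a description. The closest loci to Pax3 were Orm3 (r = 0.88) and Orm2 (0.87), which neighbour each other. Pax7 was closest to Rps6ka2 (0.86) and Ttc7b (0.85), Eya2 to Gpihbp1 (0.9) and Mthfd1l (0.89), and Eya3 to Gng2 (0.91) and Akna (0.91). For Six5 the values were 0.95 with Nqo2 and 0.95 with Sdc4, for Six4 0.84 with Lrrc56 and 0.84 with Kif2c, and for Eya4 0.86 with Mrps18a and 0.85 with Tnfsf15.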

How the data were processed

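The labels' protocols describe tagmentation of lysed cells with a commercial kit, 10 PCR cycles and paired-end sequencing. GRCm38 is the build per the submitters' processing notes; the aligner, filters and peak caller are not given in the sources used here. The authors deposited 1 broad peak list per library, called per library. For every peak the deposited lists give a score, the fold over background (a ratio), and the p-value and q-value as −log10; no deposited −log10 q-value was below 1.0. Their use here was to filter peaks and to rank them inside their list. Read totals were not used here; depth was taken from the background pileup, solved from the fold and −log10 p-value under an assumed Poisson form.

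The 787806 peaks were merged (at least 1 bp shared, Python 3.11.15, pandas 2.3.3). Genes came from a RefSeq table of GRCm38.p6 without strand, and start sites and sequences from the RefSeq promoter table, in which 6 of the 9 genes were found. Exact permutation tests were two-sided and within strata, over every region or protein-coding locus of the genome able to reach a p of 0.05. Benjamini-Hochberg adjustment was applied at 0.05. The tests were run on simulated data drawn independently for each library, at rates shared by all libraries. Those data held no differences of list length and no likeness within a KO line, so the run cannot show how the tests behave with either. The members and gene lists were chosen with earlier results of these data known. Elements named by rule were those within 1 kb of a gene end, those that passed a test and the one called in most libraries per gene. Ties went to the higher percentile. Others are marked as singled out, are given as tied, or are named for their values or for the pattern of calls they showed. Libraries of 1 KO line deviated together (r of 0.258 to 0.396 over 3 pairs), so line pairs them where the contrast allows, as an alternative added after seeing the data; WT replicates share only a number (r of −0.03 to 0.045). Alternatives were cover of 50%, a −log10 q-value of at least 5, the 20000 strongest peaks, a window of 5 kb, all 20 libraries, no D5 libraries, merging across 200 bp, each replicate left out, a replicate block and, added after seeing the data, counts per 10000 peaks.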

Additional observations from a re-analysis of the deposited data

How the results depend on the processing

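For KO minus WT, the count of loci past the threshold over the genome (1433) became 0 with 50% cover (2739 at an unadjusted p under 0.05), 520 with peaks of −log10 q at least 5, 2686 with all 20 libraries, 0 without the D5 libraries (2157 unadjusted), and 2860 per 10000 peaks, where 1197 were higher and 1663 lower against 260 and 1173. Leaving out 1 replicate at a time gave 0 to 1009. The 4 members became 0 with 50% cover, 1 with that higher q-value, 0 without D5, and 0 to 2 with a replicate left out; Pax7 and Six2 passed without KO replicate 1 (adjusted p = 0.0499 each, exact permutation test), and fewer libraries leave fewer arrangements. Regions (2257) became 0 with 50% cover, 416 with the higher q-value, 3513 with all 20 libraries, 1347 without D5, and 0 to 5767 with a replicate left out. Member elements (2) became 0, 0 and 5 with 50% cover, the higher q-value and the 20000 strongest peaks, 0 with the 5 kb window, and 0 to 9 with a replicate left out.

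For D5 minus D1, loci (8091) became 0 with the 20000 strongest peaks (1074 unadjusted), 5043 with the 5 kb window, 0 to 7135 with a replicate left out, and 3248 per 10000 peaks, 2714 higher and 534 lower. Members (3) became 7 with the higher q-value, 0 with the strongest peaks, 8 with all 20 libraries and 0 to 5 with a replicate left out. The 20 libraries include the D5 lists of KO line 1, with 644 and 1881 peaks. The genome-wide locus counts with the higher q-value and with all 20 libraries are not given here. The 7 and 8 are therefore not read as a trait of the members. Regions (0) became 10687 with all 20 libraries and 0 to 3512 with a replicate left out, and member elements (0) became 5 and 0 to 2.

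With the replicate block, genome-wide KO minus WT loci were 0 (2320 unadjusted), members 0 and member elements 4; D5 minus D1 loci were 4060 and regions 603. The share of all regions passing KO minus WT under this block is not given here. With KO line as the replicate block, D5 minus D1 gave 5 members, 3512 regions and 2 member elements. For this contrast that block is the same test as leaving out KO replicate 1.

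Directions turned for KO minus WT at Six4 (−0.2 with the higher q-value, −0.1 with the strongest peaks, −0.2 with all 20 libraries), Six5 (0.3 with 5 kb, 0.06 per 10000 peaks, and −1.1 to 0.5 with a replicate left out, the highest without KO replicate 2) and Eya4 (−5 to 3 with a replicate left out, the highest without KO replicate 2). For D5 minus D1 they turned per 10000 peaks at Pax3 (0.1), Six2 (0.01), Six4 (0.21), Six5 (0.31), Eya1 (0.07) and Eya3 (0.29), and with the strongest peaks at Six5 (0.88), Eya1 (0.25) and Eya4 (0.62). The cause of these turns was not tested. Counts for MR and for its genotype difference stayed 0 under each alternative that gave a value; without D5 neither had one, and without KO replicate 2 D5 minus D1 and the genotype difference had none.

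Calls carry no read counts, so a missing call does not show that an element was closed; background pileup was 1.42 to 2.76 in KO line 2, and its part in missing calls was not tested. With 2 libraries per group, no single condition can pass by itself.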

Other observations

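Of the 94 elements, 9 lie at an end of another gene. They are shared with Gm2102 in the Pax3 window, Mnat1 in the Six4 window, Dmwd and Dmpk in the Six5 window, and Xkr8 and Smpdl3b in the Eya3 window.

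In KO line 2 the distal Pax7 element 1 was the 1 Pax7 element called at D5 CTL and at D5 MR, at percentiles 68.9 and 24.4, in lists of 29963 and 22062 peaks. The WT libraries of D5 called 2 to 6 Pax7 elements, in lists of 20847 to 39538 peaks.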
